A study of Mus musculus with 6 samples.

Results

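Imprinted genes are read mainly from the copy inherited from a single parent, and a set of them governs growth before birth. The genes described here are the imprinted growth genes *Igf2*, *H19*, *Cdkn1c*, *Peg3*, *Mest*, *Plagl1*, *Grb10*, *Igf2r*, *Peg10* and *Ndn*, all outside the *Dlk1*-*Dio3* domain. They were chosen by name, 6 paternally and 4 maternally expressed. A gene was measured where a probe set of the array carried its symbol and no other, and the brightest such probe set stood for the gene. This gave values for 9 of the 10 genes among 19938 genes in all, and *H19* was not analysed here because no probe set carried its symbol alone. Each of the 9 genes had 1 such probe set.

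RNA came from whole lungs dissected at E18.5 from individual mouse embryos on a C57Bl/6 background, 3 wild type (WT) and 3 homozygous for a gene trap in *Tnrc6a* (GW182gt/gt, here *Tnrc6a* null). The trap inserts a β-galactosidase gene into the *Tnrc6a* locus and is carried by every cell of the embryo. TNRC6A, also called GW182, is a partner of the Argonaute proteins through which miRNAs silence their targets. The WT embryos were littermates of mutants, but no label ties a given WT lung to a given null lung. The array reads total RNA of the whole organ without regard to the parental copy, so these data hold no measure of imprinting itself, and fewer cells of a type and less RNA per cell cannot be told apart.

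In each imprinted cluster an imprinting control region is methylated in the egg or the sperm, and the mark decides which parental copy is active in the embryo. Many paternally expressed members favour fetal growth and many maternally expressed members restrain it. *Igf2* encodes the main fetal growth factor, *Igf2r* a receptor that carries IGF2 to lysosomes, *Grb10* an adaptor that dampens signalling by the insulin and IGF receptors, and *Cdkn1c* the cyclin-dependent kinase inhibitor p57. *Plagl1* encodes the zinc finger transcription factor ZAC1. Most of these genes are highly active before birth and are turned down after it.

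As *Tnrc6a* acts in the miRNA pathway, the miRNAs that lie within these loci are shown first. *Mir335* lies in an intron of *Mest*, *Mir483* in an intron of *Igf2* and *Mir675* within the *H19* transcript. Their 6 mature sequences, from RefSeq on GRCm38.p6, are given 5′ to 3′ with the seed, bases 2 to 8, in capitals.
mmu-miR-335-5p, chr6:30741314-30741336, plus strand: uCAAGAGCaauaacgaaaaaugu
mmu-miR-335-3p, chr6:30741354-30741375, plus strand: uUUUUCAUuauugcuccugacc
mmu-miR-483-5p, chr7:142654968-142654989, minus strand: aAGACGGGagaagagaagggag
mmu-miR-483-3p, chr7:142654932-142654952, minus strand: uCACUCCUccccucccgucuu
mmu-miR-675-5p, chr7:142577112-142577133, minus strand: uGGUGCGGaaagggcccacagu
mmu-miR-675-3p, chr7:142577078-142577099, minus strand: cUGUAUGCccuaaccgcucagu
The 6 sequences have 6 distinct seeds, so these miRNAs form no shared seed family.

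The deposited values are on a logarithmic scale that the sample labels call log2. The base was not checked here against a second source, so each change is a difference between mean values, null lungs less WT lungs, with no fold computed. Array medians lay between 4.98 and 5.03. *Tnrc6a* itself read 7.38, 7.13 and 7.18 in WT lungs, and 5.45, 5.04 and 5.40 in null lungs (adjusted p = 0.00312 from limma), and it was the only gene of 19938 (0.00502%) past an adjusted p of 0.05. As a check of the tissue, the epithelial genes *Sftpc* and *Nkx2-1* were present in all 6 lungs, at 11.64 to 11.82 and at 8.20 to 8.51. WT replicate 1 and null replicate 3 stood apart from the rest, correlating with each other across genes at 0.992, above the correlation of either with any lung of its own genotype (0.979 to 0.988). Results that rest on these lungs are given with and without them.

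None of the 9 imprinted growth genes passed an adjusted p of 0.05 in the null lungs (limma, Benjamini-Hochberg over all genes; 0 also with the methods' t-test after adjustment). At an unadjusted p under 0.05 with limma, 1 of the 9 was lower, *Cdkn1c*, and 0 were higher, beside 5.42% of all genes in either direction, 2.96% lower and 2.46% higher. The median difference of the 9 genes was -0.013, beside 0 over all genes and -0.063 over the brightest decile of genes. It was -0.01 for the 6 paternally expressed genes, with 4 below 0 and 2 above, and -0.04 for the 3 maternally expressed genes measured, with 2 below 0 and 1 above. The genotypes overlapped in 8 of the 9 genes and were separate in 1, beside 10.2% of all genes that were separate.

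**Figure D1:**
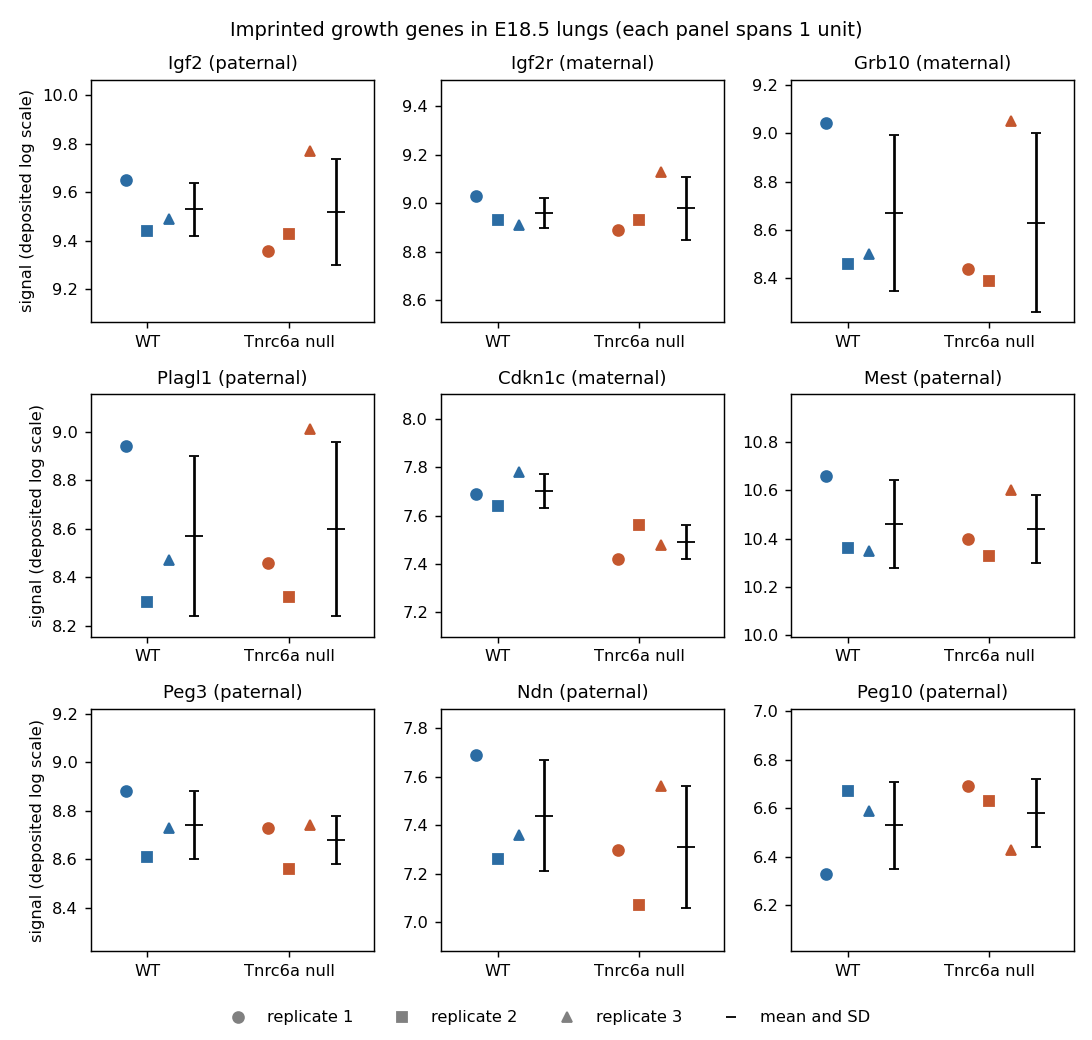
Signal of the 9 measured imprinted growth genes in whole fetal lung. Signal is on the deposited log scale (vertical axis), with the same span in every panel, each point is 1 lung with its shape giving the replicate, bars are the mean and SD of 3 lungs, and the parental copy expressed stands beside the gene. The genotypes separate for *Cdkn1c*, and WT replicate 1 and null replicate 3 are the highest lungs of their genotypes in 7 of the 9 panels.

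*Cdkn1c* is expressed from the maternal copy, and its product p57 holds cells out of the cell cycle. It read 7.69, 7.64 and 7.78 in WT lungs, and 7.42, 7.56 and 7.48 in null lungs. All 3 null values were under the lowest WT value, by a margin of less than 0.1 between the nearest lungs, and neither WT replicate 1 nor null replicate 3 was an extreme of its genotype. The mean went from 7.70 ± 0.07 (SD, n = 3) to 7.49 ± 0.07 (SD, n = 3), a difference of -0.22 (standard error 0.078, 95% interval -0.39 to -0.04). Its unadjusted p was 0.0223 and its adjusted p 0.89 from limma, so the difference did not pass over all genes. Such a separation downward was found in 5.51% of all genes. The exact permutation test of 3 lungs against 3 allows no two-sided p below 0.1. Without WT replicate 1 and null replicate 3 the difference was -0.22 (unadjusted p = 0.0194 and adjusted p = 0.241 from limma, the latter ranging from 0.156 to 0.999 over all alternatives).

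The size of the *Cdkn1c* difference can be read beside genes of like signal. *Cdkn1c* lay at the 88.5th percentile of mean signal, and in that decile the median difference was -0.057, with 127 of 1994 genes lower at an unadjusted p under 0.05 and 25 higher. All 3 null lungs were below the WT lungs in 220 of those 1994 genes. After quantile normalization over all probe sets *Cdkn1c* stood at -0.164 (unadjusted p = 0.0729 from limma). Of its close relatives that are not imprinted, *Cdkn1b*, which encodes the inhibitor p27, had a difference of -0.03 and overlapped between the genotypes.

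Markers of other cells and states in the same comparison are given as measured. Endothelial markers were below 0 in 9 of 9, with 4 lower at an unadjusted p under 0.05 (limma), beside 2.96% of all genes and 8.83% of the brightest decile, and their mean level lay at 8.75 to 8.94 in the WT lungs and 8.57 to 8.76 in the null lungs. Mesenchymal markers were below 0 in 8 of 10, with 3 lower at that p and mean levels of 9.13 to 9.21 and 9.04 to 9.09. Proliferation genes were above 0 in 14 of 14, with 3 higher at that p, beside 2.46% of all genes, and mean levels of 6.57 to 7.04 and 6.71 to 7.20. Macrophage markers were below 0 in 7 of 7, with 2 lower at that p, a median of -0.25 and mean levels of 6.31 to 6.73 and 6.00 to 6.46. The liver markers were above 0 in 7 of 7 with a median of 0.353, none of them past that p, and the genotypes overlapped in each. Without WT replicate 1 and null replicate 3, liver differences were -0.66 (*Alb*), -0.29 (*Ahsg*), -0.22 (*Apoa1*), -0.215 (*Apoa2*) and -0.11 (*Ttr*). The rest were 0.02 (*Afp*) and 0.21 (*Fgb*), so the direction of most liver markers rests on these lungs. Lung epithelial markers were below 0 in 7 of 11, with *Aqp5* lower at an unadjusted p under 0.05 from limma (difference -0.25). Every null lung was lower for *Ager* and *Cdh1* (differences -0.16 and -0.11). The same held for 5.51% of all genes and 15.6% of the brightest decile, where both lie. The defining markers of endothelium and mesenchyme were bright, *Pecam1* at 8.68 to 8.95 and *Col1a1* at 8.99 to 9.22. The part of these cells in the *Cdkn1c* values was not tested.

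*Igf2* is expressed from the paternal copy. Its signal read 9.65, 9.44 and 9.49 in WT lungs, and 9.36, 9.43 and 9.77 in null lungs. The lowest and the highest of the 6 values were both null lungs, so the WT lungs lay inside the null range. The mean was 9.53 ± 0.11 (SD, n = 3) in WT and 9.52 ± 0.22 (SD, n = 3) in null lungs, and the 95% interval of the difference ran from -0.27 to 0.25. Null replicate 3, the highest for *Igf2*, also had the most signal of genes that mark liver, an organ known for abundant *Igf2* in the fetus. The liver markers averaged 5.51 in null replicate 3 and 4.37 to 4.87 in the other lungs, and *Alb*, which encodes albumin, stood at 7.61 there and at 4.78 to 6.26 elsewhere. WT replicate 1, next highest for *Igf2* at 9.65, had a liver marker mean of 4.39 and *Alb* at 5.09. The part of liver in the *Igf2* values was not tested. Without null replicate 3 the *Igf2* difference was -0.132 (unadjusted p = 0.158 from limma), and without WT replicate 1 as well it was -0.07.

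*Igf2r*, maternally expressed, encodes the receptor that clears IGF2. It read 9.03, 8.93 and 8.91 in WT lungs, and 8.89, 8.93 and 9.13 in null lungs. Its WT values spanned 0.12 and its null values 0.24, the null range enclosing the WT range. The difference was 0.03 with a 95% interval of -0.17 to 0.22, among the narrowest intervals of the 9 genes. The non-coding RNA gene *Airn*, paternally expressed and antisense to *Igf2r*, is singled out here after its values were seen. Its signal read 9.62, 8.97 and 9.03 in WT lungs, and 9.19, 9.09 and 9.57 in null lungs, again highest in WT replicate 1 and null replicate 3. The *Airn* difference was 0.08 with these lungs and 0.14 without them. Whether the probes of these overlapping genes tell the strands apart was not checked here.

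*Grb10*, expressed from the maternal copy in most tissues, encodes the adaptor downstream of the insulin and IGF receptors. It read 9.04, 8.46 and 8.50 in WT lungs, and 8.44, 8.39 and 9.05 in null lungs. A single lung of each genotype was high, and the other 4 lay within 8.39 to 8.50. *Plagl1*, paternally expressed, had the same lungs high, with readings of 8.94, 8.30 and 8.47 in WT lungs, and 8.46, 8.32 and 9.01 in null lungs. The difference between genotypes was -0.04 for *Grb10* (95% interval -0.50 to 0.42) and 0.03 for *Plagl1* (95% interval -0.44 to 0.49). These were the widest intervals among the 9 genes, and within a genotype both genes spanned 0.58 to 0.69.

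*Mest*, paternally expressed and coding for a protein of the alpha/beta hydrolase family, was the brightest of the 9 genes. It read 10.66, 10.36 and 10.35 in WT lungs, and 10.40, 10.33 and 10.60 in null lungs, with a difference of -0.01 (95% interval -0.26 to 0.23). Again the highest WT lung was replicate 1 and the highest null lung replicate 3. *Peg3*, a paternally expressed zinc finger gene, read 8.88, 8.61 and 8.73 in WT lungs, and 8.73, 8.56 and 8.74 in null lungs, with a difference of -0.06 (95% interval -0.27 to 0.15). Here null replicates 1 and 3 were level within 0.01.

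*Ndn*, paternally expressed, encodes necdin, a MAGE family protein that restrains proliferation of neural precursors. It read 7.69, 7.26 and 7.36 in WT lungs, and 7.30, 7.07 and 7.56 in null lungs. Its difference of -0.13 (95% interval -0.46 to 0.21) was the second in size after *Cdkn1c*, but it rests on WT replicate 1, which left out gave 0, and on null replicate 2, which left out gave -0.007. *Peg10*, a paternally expressed gene derived from a retrotransposon and needed for the placenta, was the dimmest, with readings of 6.33, 6.67 and 6.59 in WT lungs, and 6.69, 6.63 and 6.43 in null lungs. Unlike the others, *Peg10* was lowest in WT replicate 1 and in null replicate 3. Its difference was 0.05 (95% interval -0.21 to 0.32).

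**Figure D2:**
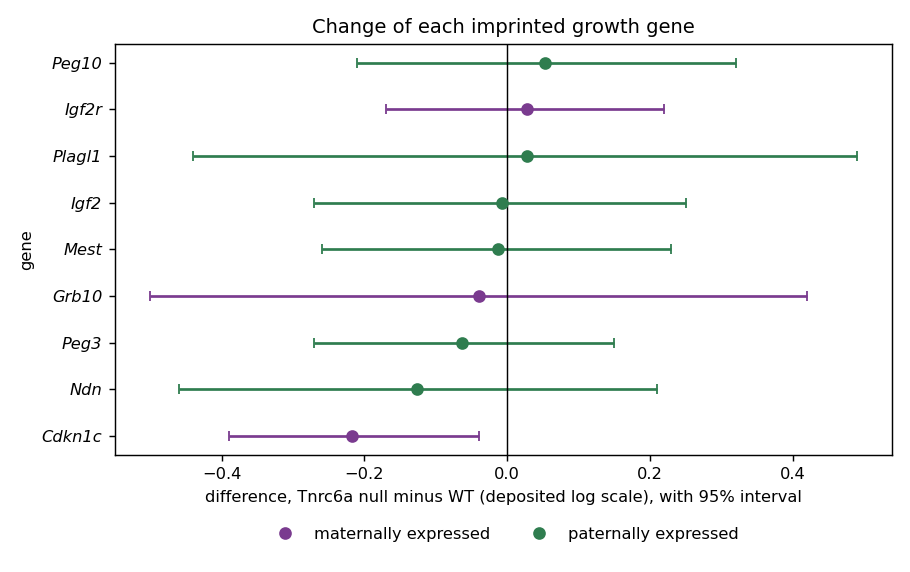
Difference between *Tnrc6a* null and WT lungs for the 9 measured imprinted growth genes. The horizontal axis is the difference on the deposited log scale, points are the differences, bars are the 95% intervals from limma without correction for the number of genes, and colour gives the parental copy expressed. The interval of *Cdkn1c*, -0.39 to -0.04, lies below 0 and the other 8 span 0.

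Apart from *Cdkn1c*, the lungs of 1 genotype differed more than the genotype means did. In 7 of the 9 genes (*Igf2*, *Igf2r*, *Grb10*, *Plagl1*, *Mest*, *Peg3* and *Ndn*) the highest WT lung was WT replicate 1 and the highest null lung was null replicate 3, and in 1 (*Peg10*) these lungs were the lowest. Over all genes 12.5% were highest in both lungs and 32.4% lowest in both, and over the brightest decile 27.7% and 28.7%. WT replicate 1 lay above the mean of the other WT lungs by 0.56 for *Grb10*, 0.55 for *Plagl1* and 0.38 for *Ndn*. Null replicate 3 lay above the mean of the other null lungs by 0.64, 0.62 and 0.37 for the same genes. Ranking all 19938 genes by the smaller of these deviations, 85 lay above *Grb10*, 89 above *Plagl1* and 274 above *Ndn*. The rest of the 7 ranked further down, with 724 genes above *Mest*, 1043 above *Igf2*, 1795 above *Igf2r* and 2008 above *Peg3*. With both lungs left out the genotype difference was -0.065 for *Grb10*, 0.005 for *Plagl1*, -0.125 for *Ndn*, -0.025 for *Peg3*, 0.01 for *Mest*, -0.01 for *Igf2r* and 0.03 for *Peg10*, and none of the 9 was past 0.05 after limma adjustment (1, *Cdkn1c*, at an unadjusted p under 0.05). The ranking by deviation was chosen after the values were seen, is a description of 2 lungs, and was given no test.

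Both parental classes took part, since *Grb10* and *Igf2r* are maternally and the other 5 of the 7 paternally expressed. Proliferation genes went with the same lungs in part. Their mean level was 7.04 in WT replicate 1 against 6.57 and 6.58 in the other WT lungs, and 7.20 in null replicate 3 against 7.04 and 6.71 in the other null lungs, with 10 of 14 genes highest in both. Null replicate 1 stood at 7.04 for the proliferation genes, at 8.44 for *Grb10* and at 8.46 for *Plagl1*. Macrophage markers were lower in these lungs, at 6.31 in WT replicate 1 and 6.00 in null replicate 3 against 6.44 to 6.73 in the others. The drop was not particular to macrophages. Endothelial markers averaged 8.75 in WT replicate 1 against 8.94 and 8.93, and 8.57 in null replicate 3 against 8.73 and 8.76. Epithelial markers averaged 9.41 against 9.48 and 9.48, and 9.33 against 9.38 and 9.45. Mesenchymal markers, at 9.19 and 9.09, were not the lowest of their genotypes in these lungs. The part of proliferation and of other cells in the imprinted genes' values was not tested. No batch shared by these 2 lungs is named in the labels. Over the 6 lungs the Y-linked genes read 7.07 to 7.72 (*Eif2s3y*), 6.58 to 6.76 (*Kdm5d*) and 6.12 to 7.10 (*Uty*). Their mean signal lay at the 85.8th, 74th and 71.1st percentiles. *Xist* read 2.60 to 3.30, at the 7th percentile.

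**Figure D3:**
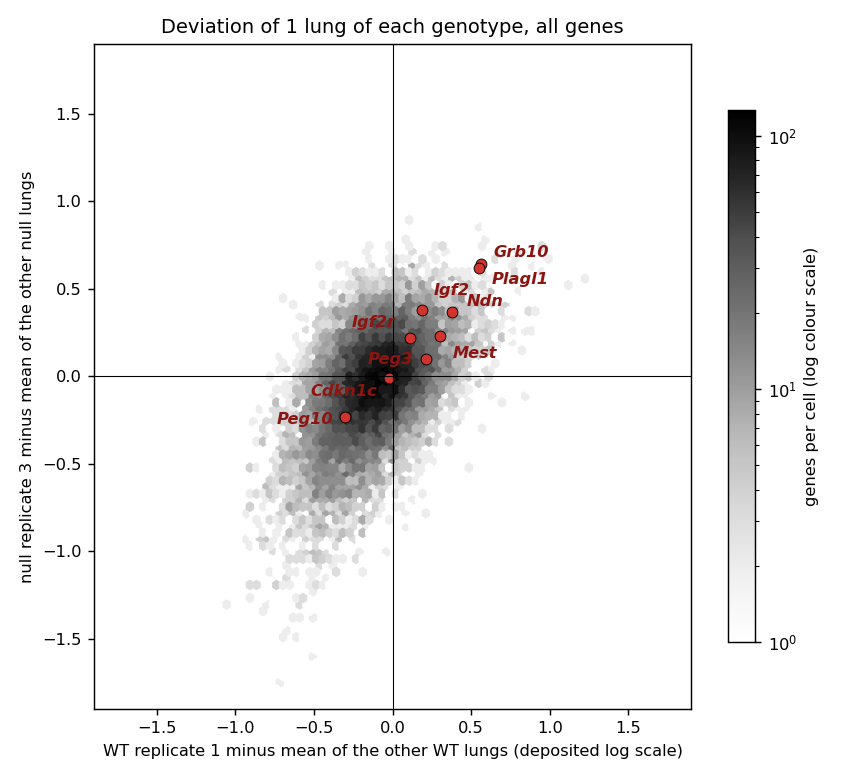
Deviation of WT replicate 1 from the mean of the other WT lungs (horizontal axis) and of null replicate 3 from the mean of the other null lungs (vertical axis), both on the deposited log scale. Grey cells count all genes on a log colour scale, with 15 genes outside the axes, and red points are the 9 imprinted growth genes. *Grb10* and *Plagl1* lie at the upper right, 7 genes lie above 0 on both axes, *Cdkn1c* is next to the origin and *Peg10* is below 0 on both.

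Because ZAC1, the product of *Plagl1*, is known to regulate other imprinted genes and to bind the palindrome GGGGCCCC, promoter windows of the members were searched for these letters, which read the same on both strands. RefSeq windows on GRCm38.p6, from 250 bases before to 50 after a start, were held for 7 of the 10 genes (all but *Cdkn1c*, *H19* and *Peg10*), 13 windows in all. A single window held the palindrome, that of *Peg3*, against 1.08% of 32851 windows of all genes. It is printed with the match in capitals, starting at base 50 of the window.
Peg3, chr7:6730370-6730669, minus strand: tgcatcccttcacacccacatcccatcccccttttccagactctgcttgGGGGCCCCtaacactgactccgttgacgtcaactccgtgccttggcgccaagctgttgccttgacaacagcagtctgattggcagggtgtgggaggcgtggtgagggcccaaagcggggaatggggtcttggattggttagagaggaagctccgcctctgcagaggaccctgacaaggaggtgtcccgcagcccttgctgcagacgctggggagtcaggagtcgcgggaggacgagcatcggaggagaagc
The match describes the letters of the window, and binding was not measured.

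The miRNA genes within the loci are set beside their host genes. *Mir335* read 3.36, 3.59 and 3.64 in WT lungs, and 3.82, 3.92 and 3.66 in null lungs, with all 3 null lungs higher, against 4.67% of all genes, and its host *Mest* overlapped. Its difference was 0.27 (95% interval -0.06 to 0.60, unadjusted p = 0.0989 and adjusted p = 0.89 from limma), at the 16.8th percentile of signal. Genes this dim had a median difference above 0, at 0.11 in their decile. *Mir483* read 5.77, 5.78 and 5.94 in WT lungs, and 5.86, 5.89 and 6.48 in null lungs. Its highest lung was null replicate 3, as for its host *Igf2*, whereas its lowest was WT replicate 1, where *Igf2* was high. The *Mir483* difference of 0.25 was 0.015 without these lungs. A probe set of this kind reads RNA that holds the hairpin, and the mature sequences shown above were not measured. *Mir675* had no probe set of its own symbol alone and was not analysed here.

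Other imprinted genes were taken as lists by parental copy, some of them imprinted in the placenta or the brain only. Of 13 paternally expressed genes measured, 0 passed (unadjusted p under 0.05, limma), and their median difference was 0.073. The smallest p was that of *Nap1l5*, with readings of 3.95, 4.13 and 4.34 in WT lungs, and 4.41, 4.47 and 4.37 in null lungs (difference 0.28, unadjusted p = 0.0711 and adjusted p = 0.89 from limma), followed by *Inpp5f* at 0.14 and *Sgce*, a neighbour of *Peg10*, at -0.09. Every null lung of *Nap1l5* lay above every WT lung, against 4.67% of all genes, the closest pair 0.03 apart. *Nap1l5* lay at the 28.6th percentile of signal, in a decile with a median difference of 0.063. Of 14 maternally expressed genes 0 passed, with a median of 0.013. *Phlda2*, a gene of the *Cdkn1c* cluster that restrains placental growth, had the smallest p, with a difference of 0.26 (unadjusted p = 0.0646 and adjusted p = 0.89 from limma), opposite in sign to that of *Cdkn1c*. It was followed by *Slc22a2* at 0.23 and *Klf14* at -0.18, and the genotypes overlapped in all 14 genes.

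**Figure D4:**
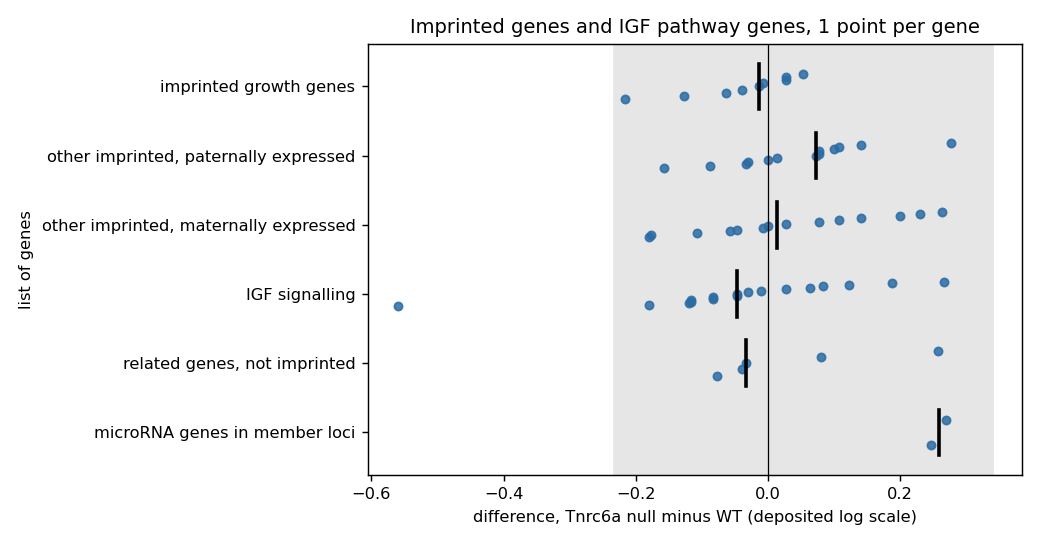
Difference between *Tnrc6a* null and WT lungs on the deposited log scale for the imprinted growth genes, other imprinted genes, IGF pathway genes, related genes that are not imprinted, and miRNA genes in the loci. Each point is 1 gene, black bars are medians and the grey band spans the 5th to the 95th percentile of all genes, -0.23 to 0.34. All points but that of *Igfbp3*, at -0.56, lie inside the band.

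In the IGF pathway around *Igf2* and *Igf2r*, 1 of 17 genes measured was lower (unadjusted p under 0.05, limma) and 0 were higher, beside 2.96% and 2.46% of all genes, with a median difference of -0.047. It was *Igfbp4*, which encodes a secreted protein that binds IGFs, with readings of 8.90, 8.97 and 8.89 in WT lungs, and 8.80, 8.75 and 8.67 in null lungs. Every null lung was below every WT lung for *Igfbp4*, as in 5.51% of all genes and 15.6% of the brightest decile, where it lies. The *Igfbp4* difference was -0.18 (standard error 0.071, unadjusted p = 0.0322 and adjusted p = 0.89 from limma). *Igf2bp1*, named after its values were seen, separated the other way, with every null lung higher, as in 4.67% of all genes. Its difference was 0.19 (unadjusted p = 0.118 from limma), and the genotypes overlapped in the other 15 genes. *Igfbp3*, named after its values were seen for its spread, read 5.86, 7.49 and 7.64 in WT lungs, and 6.33, 7.47 and 5.51 in null lungs. It was lowest in WT replicate 1 and in null replicate 3, and its difference of -0.56 lay within the spread of the lungs (standard error 0.551), at -0.665 without these lungs. *Igf1*, the relative of *Igf2* that takes over much of growth after birth, was highest in those same lungs, at 7.13 and 6.93, as singled out after its values were seen. Its difference was 0.03, or 0.14 without them, and that of the receptor gene *Igf1r* -0.08.

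Relatives of the members that are not imprinted gave 0 of 5 genes at an unadjusted p under 0.05 from limma, with a median of -0.033. The smallest p belonged to *Plag1*, a zinc finger gene related to *Plagl1*, at 0.26 (unadjusted p = 0.185 from limma), then to *Plagl2* at 0.08 and *Grb14*, a relative of *Grb10*, at -0.08. In 0 of the 5 genes were WT replicate 1 and null replicate 3 the highest lungs, beside 12.5% of all genes.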

How the data were processed

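Expression was measured at E18.5 in whole lungs, 3 of WT and 3 of *Tnrc6a* null embryos, on Affymetrix whole-transcript mouse gene arrays, 1 embryo per array. The authors deposited 1 value per probe set and lung on a scale that the labels call log2. MAS5 is named in the submitters' processing notes, without its settings. Scanner files were not used here and signal over background was not measured. The number of arrays limits the precision.

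Of 35045 probe sets, 21789 carried 1 gene symbol, and 21698 of these were matched by Entrez ID to a RefSeq table of GRCm38.p6. The brightest stood for each of 19938 genes. The test was that of limma 3.58.1, run in R 4.3.3 (lmFit, eBayes with trend, Benjamini-Hochberg over all genes, threshold 0.05). Summaries and plots used Python 3.11.15, pandas 2.3.3 and matplotlib 3.10.9. The fit was tested on simulated data with known changes. An adjusted p under 0.05 was reached by 15.2% of genes changed by 0.5, 67.2% changed by 1 and 94% changed by 2. Of 19738 unchanged genes 5 reached it. Differences of the size seen in the members would thus mostly be missed. Groups came from the sample titles.

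The members and lists were chosen with earlier results of these data known. Named were the members, *Tnrc6a*, the miRNA genes in the loci and, per list, genes at an unadjusted p under 0.05 or else up to 3 with the smallest p. Marker genes stand for the cells and states they were listed for. A planned comparison of *H19* with *Igf2* in each lung was not run, because *H19* had no value. Alternatives were 2 forms each of quantile normalization and of median centring, the mean of probe sets, a filter on dim genes, eBayes without trend or robust, array weights, the methods' t-test, a block for replicate number and leaving out each lung. For the lungs that stood apart, a block and a fit leaving them out were chosen after seeing the data.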

Additional observations from a re-analysis of the deposited data

How the results depend on the processing

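No value of the 9 imprinted growth genes passed an adjusted p of 0.05 under any of the 19 alternatives run, and *Cdkn1c* kept its sign in each, at -0.253 to -0.157. Its count as the 1 member at an unadjusted p under 0.05 became 0 with either quantile normalization and with the replicate number as a block (unadjusted p = 0.0521 from limma). It ranged from 0 to 1 without 1 lung, at 0 without WT replicate 3 (limma unadjusted p = 0.0926) or null replicate 1 (limma unadjusted p = 0.0841). Deviations of same-numbered lungs from their genotype means correlated at -0.295, 0.361 and -0.162. With 3 lungs per genotype these values cannot settle whether same-numbered lungs shared a litter or batch. The replicate block changed no call of a member at an adjusted p. *Ndn* did not turn sign either, and the other 7 genes did in places, with no call. Quantile normalization restricted to probe sets of 1 symbol gave 0.002 for *Grb10*, 0.03 for *Igf2* and 0.011 for *Mest*, and median centring 0.013 for *Igf2* and 0.007 for *Mest*. Centring over all probe sets gave -0.01 for *Igf2r* and -0.01 for *Plagl1*, array weights gave 0.004 for *Mest*, and leaving out WT replicate 1 and null replicate 3 gave -0.01 for *Igf2r* and 0.01 for *Mest*. Without 1 lung the differences ranged from -0.252 to 0.147 for *Grb10*, -0.132 to 0.073 for *Igf2*, -0.047 to 0.073 for *Igf2r*, -0.092 to 0.088 for *Mest*, -0.047 to 0.13 for *Peg10*, -0.128 to 0.007 for *Peg3*, -0.18 to 0.212 for *Plagl1* and -0.252 to 0 for *Ndn*, and the median of the 9 genes from -0.132 to 0.055. Over all genes the count past an adjusted p of 0.05 was 1, with array weights 2, with the methods' t-test 0, without 1 lung 0 to 1 (0 without WT replicate 3), 56 with a block for the pair of lungs that stood apart and 23 without both. The count at an unadjusted p under 0.05, 1081, was 684 among genes above the median signal, 2447 with array weights, 2971 with that block, 2895 without both lungs and 614 to 1730 without 1 lung, the values past 1.5 times being 1730, 614 and 667 on leaving out WT replicates 1, 2 and 3 in turn and 1723 on leaving out null replicate 3. *Tnrc6a* had an adjusted p of 0.551 with the methods' t-test and of 0.0552 from limma without WT replicate 3. The cause was not tested.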
